A study of Mus musculus with 6 samples.

Results

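The 35 genes described here encode the constitutive subunits of the proteasome and 3 chaperones that assemble it. They were taken from the deposited table by symbol, as every gene named Psma, Psmb, Psmc or Psmd followed by a number, with the interferon-inducible subunits Psmb8, Psmb9 and Psmb10 left out. Of the 16894 genes listed, 35 met this rule, and all 35 were among the 14776 genes that were tested. They are 8 alpha and 7 beta subunits of the catalytic core, 6 ATPases, 3 other base subunits and 8 lid subunits of the regulatory particle, and 3 chaperones of base assembly. Psmb11, the thymus-specific beta subunit, was not among the listed genes.

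The proteasome degrades proteins that have been tagged with chains of ubiquitin. Its barrel-shaped core has outer rings of alpha subunits, which gate the entrance, and inner rings of beta subunits, some of which cut the substrate. A regulatory particle caps the barrel: its base unfolds and threads the substrate with a ring of ATPases, and its lid removes the ubiquitin chain. In cells exposed to interferon, inducible beta subunits replace the catalytic ones in newly made particles and form the immunoproteasome, which is known for the peptides it makes for antigen presentation.

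Fibro-adipogenic progenitors (FAPs), the mesenchymal stromal cells of skeletal muscle, were isolated from quadriceps, gastrocnemius and tibialis anterior muscles of male and female C57BL/6 mice aged 3 to 6 months, by magnetic sorting for CD45-, CD31-, α7-integrin-, SCA-1+ cells. Bulk RNA-seq gave 6 libraries, 3 from control and 3 from senescent cells. Senescence was induced in culture with 20 μM of etoposide, a topoisomerase inhibitor that breaks DNA, for 48 h, and the cells then recovered for 5 days without it. The control cells are labelled as non-senescent FAPs of the same strain. The labels do not say whether replicates came from separate animals, so p-values measure the spread between these cultures, which may be technical.

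Reads on genes ranged from 41412179 to 59912520 per library. Values of 3 libraries are listed below in the order of replicates 1, 2 and 3. The unit is CPM, read counts scaled by the authors to an effective library size, a step that raised control libraries and lowered senescent ones relative to plain library totals. Dividing by library totals alone moved the median log2 fold change of all tested genes from −0.03 to 0.17, a shift of 0.20, which is as large as most of the differences below, so both scalings are given wherever a direction turns on it. All 6 FAP markers were listed, and their summed level was 10400 to 21867 CPM in control and 3539 to 5256 CPM in senescent libraries, a difference set by Col1a1, which alone reached 21130 CPM and fell by 2.29 on the log2 scale (limma adjusted p = 0.00150). Of the other markers, Ly6a, Cd34, Dcn and Lum rose in limma, and Pdgfra had a log2 fold change of 0.22 (limma adjusted p = 0.465). Of the leukocyte markers, 3 of 6 were listed, at a summed 7.77 to 8.86 CPM in control and 12.2 to 14.04 CPM in senescent libraries. Endothelial markers, 4 of 5 listed, summed to 17.95 to 38.4 and 22.2 to 29.2 CPM. Myogenic markers, 2 of 6 listed, summed to 14.3 to 19.3 and 23.4 to 30.2 CPM. Ptprc, Adgre1, Cd52, Emcn, Pax7, Myod1, Myf5 and Myog were not among the listed genes.

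Transcripts of the proteasome differed little between senescent and control FAPs. At a Benjamini-Hochberg adjusted p under 0.05 in limma, 7 of the 35 genes fell and 1 rose, where 24.3% of all tested genes fell and 21.8% rose. The genes that fell were Psma3, Psma4, Psma5, Psma7, Psmb4, Psmd3 and Psmd7, and the gene that rose was Psma8. After division by library totals none of the 35 was called lower, against 13.1% of all genes, and 5 were called higher (Psma8, Psmb3, Psmc3, Psmd4 and Psmd10), against 33.8%, although all 7 genes called lower at the deposited scaling kept negative estimates. At an unadjusted p under 0.05 in limma with library totals, 1 member was lower, against 16.1%.

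The 35 genes had a median log2 fold change of −0.13, with estimates from −0.41 to 0.67, and 29 were negative and 6 positive. With library totals the median was 0.08, and 8 were negative and 27 positive. Without Psma8, the SD of the log2 fold changes among 34 genes was 0.13, while that over all tested genes was 0.70. The median absolute log2 fold change was 0.15 for the 35 genes and 0.34 for all genes, and the median SE was 0.08 and 0.14. A log2 fold change beyond 0.5 in either direction was seen in 1 member, Psma8, and in 34.7% of all genes. At an unadjusted p under 0.01 with a log2 fold change beyond 1, none of the 35 passed in limma, against 10.8% of all genes. At that threshold none passed in edgeR's quasi-likelihood test on whole reads, and 1 passed in DESeq2, Psma8. The share of all genes was not computed for edgeR or DESeq2 there. At an unadjusted p under 0.05 in limma, 8 were lower, against 28.5% of all genes, and 1 was higher, against 25.4%. The edgeR and DESeq2 fits each called 5 members lower at an adjusted p under 0.05, without Psma3 and Psma4, where edgeR called 22.4% and DESeq2 23.3% of all genes lower. Each called 1 member higher, against 22.1% in edgeR and 24.1% in DESeq2.

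In 16 of the 35 genes all 3 senescent libraries lay below all 3 control libraries, where 30.9% of all genes did so, and in 1 gene they lay above, where 26.5% did. With libraries of the same replicate number compared, the senescent library was the lower in 3 of 3 pairs for 24 members, against 38.8% of all genes, and the higher in 3 of 3 for 3 members, against 33.8%. A fit with the replicate number as a block called 8 members lower, against 26.7% of all genes, and 1 higher, against 24.2%. The added gene was Psmd12. Summed over the 35 genes, the level was 4011, 4259 and 3943 CPM in control and 3649, 3686 and 3759 CPM in senescent libraries. As a share of reads the same sums were 0.368%, 0.4004% and 0.367% in control and 0.390%, 0.401% and 0.403% in senescent libraries. The senescent sums were thus all lower on the deposited scale and, as shares of reads, 2 of the 3 lay above every control library. In bulk RNA, fewer cells of a type and less RNA per cell cannot be told apart.

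**Figure D1:**
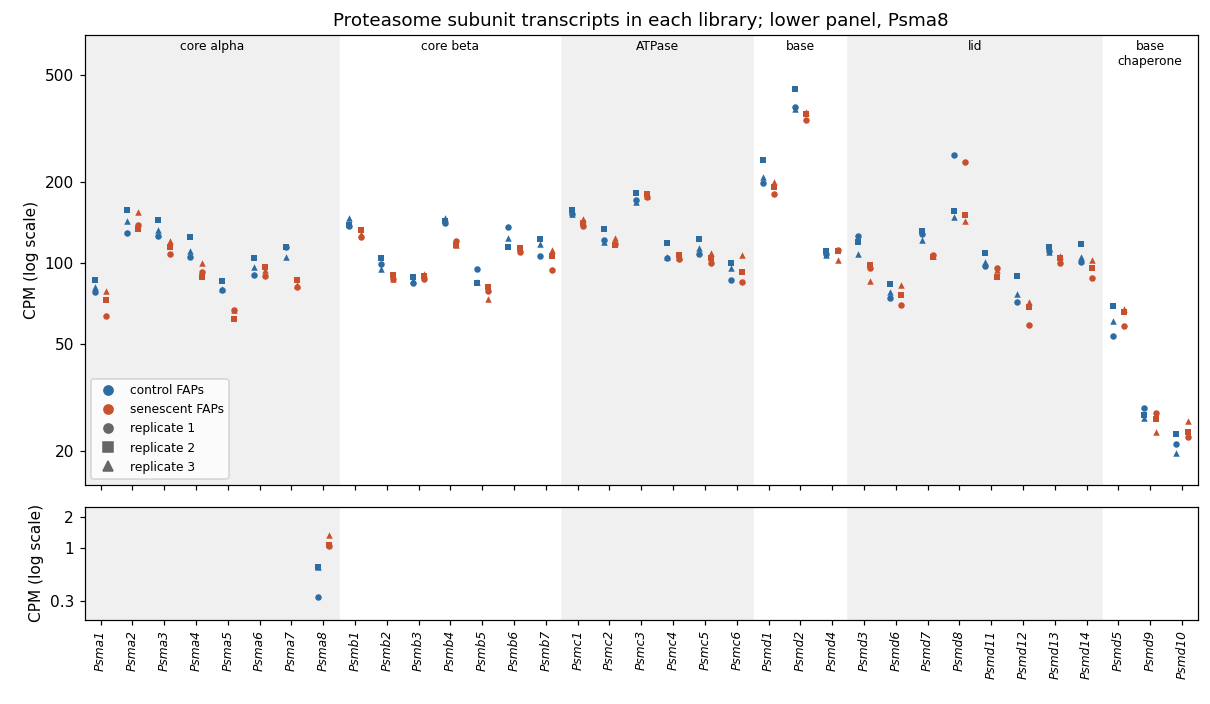
CPM of the 35 genes in each library on log axes, grouped by their place in the particle, with control FAPs in blue, senescent FAPs in red and circles, squares and triangles for replicates 1, 2 and 3; the lower panel holds Psma8. Most genes lie near 100 CPM with the groups close together, Psmd2 has the highest CPM (not corrected for length), and Psmd8 is high in replicate 1 of both groups.

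**Figure D2:**
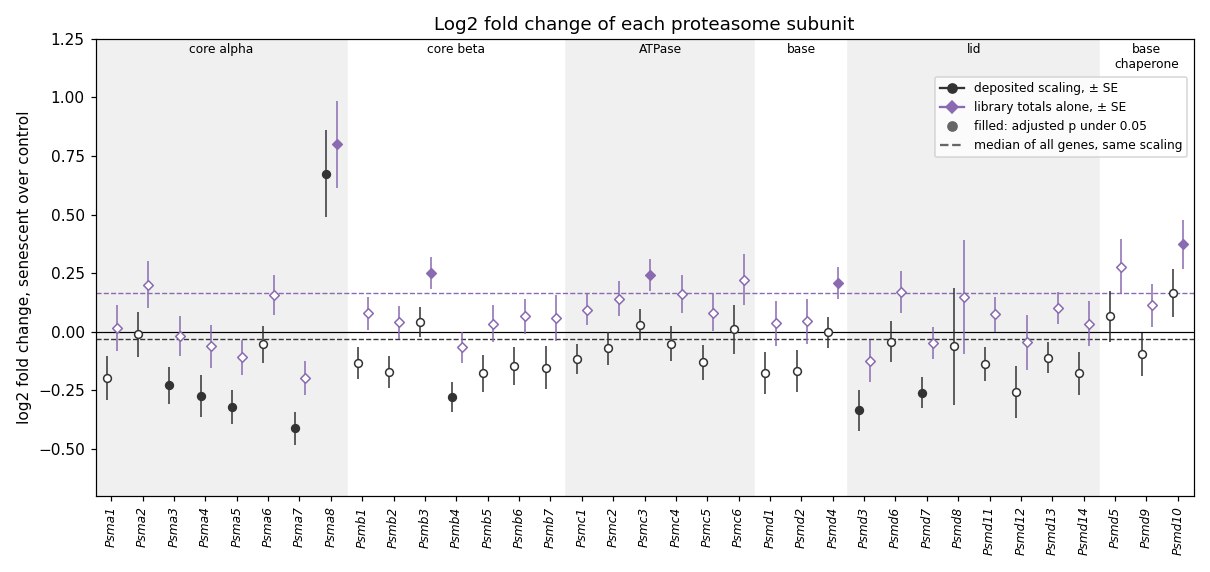
Log2 fold change of each gene, senescent over control, with its SE, at the deposited scaling (circles) and after division by library totals (diamonds), filled where the limma adjusted p is under 0.05; dashed lines mark the median of all tested genes at each scaling, −0.03 and 0.17. The 7 genes called lower at the deposited scaling are not called after division by library totals, and Psma8 is filled at both.

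Among the alpha subunits, which form the gated outer rings of the core, 4 of 8 fell and 1 rose. Over all tested genes 24.3% fell and 21.8% rose. The median log2 fold change of the 8 was −0.21 (−0.00 with library totals). Psma7 had the lowest estimate of all 35 genes. Its CPM was 114, 114 and 105 in control and 81.1, 86.6 and 82.6 in senescent libraries. The groups did not overlap, and each senescent library lay well below the lowest control library. The mean went from 111 ± 5.44 to 83.4 ± 2.84 CPM (SD, n = 3 and 3). The log2 fold change was −0.41 (SE 0.07, limma adjusted p = 0.00299). It was called with any single library left out, while with library totals it was −0.20 (limma adjusted p = 0.0544, or 0.0481 with the replicate number as a block).

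Psma5 fell from 81.4 ± 3.47 to 65.0 ± 3.00 CPM, a log2 fold change of −0.32 (limma adjusted p = 0.00909), and also kept its call with any single library left out. Psma4, at 114 ± 10.2 and 93.8 ± 5.71 CPM, and Psma3, at 134 ± 9.28 and 114 ± 6.30 CPM, were close to the threshold. Their log2 fold changes were −0.27 (limma adjusted p = 0.0358) and −0.23 (limma adjusted p = 0.0485), and they were called in 2 and 1 of the 6 fits that left out a library. Psma1, Psma6 and Psma2 were not called, with log2 fold changes of −0.20, −0.05 and −0.01.

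Psma8, the testis-specific alternative to Psma7, was the gene that rose, from a very low level. It had 0.335, 0.647 and 0.646 CPM in control and 1.03, 1.07 and 1.35 CPM in senescent libraries, or 15 to 64 reads per library. Every senescent library was higher than every control library. The log2 fold change was 0.67 (SE 0.19, limma adjusted p = 0.0211) on the log2(CPM + 0.5) scale, which understates changes at this level. The call was lost in 3 of the 6 fits that left out a library: without control replicate 1, senescent replicate 2 or senescent replicate 3, with an adjusted p of up to 0.0718 in limma. Psma8 resembles Psma7 in sequence, so reads may be shared between the pair, and its level per kilobase of exon was 0.680 CPM in senescent FAPs against 70.7 CPM for Psma7.

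Of the 7 beta subunits 1 fell, against 24.3% of all tested genes. The median log2 fold change of the 7 was −0.15 (0.06 with library totals). Psmb4, a structural beta subunit with no catalytic site, had 140, 143 and 147 CPM in control and 121, 117 and 116 CPM in senescent libraries. The groups were clearly apart, with a narrow spread in each. Psmb4 fell by 0.28 on the log2 scale (SE 0.06, limma adjusted p = 0.00928), from 143 ± 3.30 to 118 ± 2.57 CPM, and was called with any single library left out. At the other end stood Psmb3, also structural, with 84.4, 88.9 and 86.4 CPM in control and 86.7, 89.5 and 90.9 CPM in senescent libraries. Those values overlapped, at a log2 fold change of 0.04 (SE 0.06, limma adjusted p = 0.633), or 0.25 with library totals (limma adjusted p = 0.0180). Psmb1 and Psmb2 were not called, at log2 fold changes of −0.13 and −0.17. Their senescent libraries all lay below their control libraries, as in 30.9% of all genes.

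The catalytic beta subunits did not pass the test. Psmb5, the chymotrypsin-like subunit and a target of bortezomib, had 94.9, 84.1 and 85.0 CPM in control and 78.4, 81.3 and 73.4 CPM in senescent libraries. All senescent libraries lay below all control libraries, but the gap between the groups was smaller than the spread within control. That is a log2 fold change of −0.18 (SE 0.08, limma adjusted p = 0.102). Psmb6, the caspase-like subunit, had 135, 115 and 124 CPM in control and 109, 114 and 114 CPM in senescent libraries, which approached each other without overlap. This gave a log2 fold change of −0.15 (SE 0.08, limma adjusted p = 0.165). Psmb7, the trypsin-like subunit, had 106, 123 and 118 CPM in control and 94.2, 106 and 112 CPM in senescent libraries, with overlapping groups. Its log2 fold change was −0.15 (SE 0.09, limma adjusted p = 0.205). With library totals the 3 estimates turned positive, at 0.03, 0.07 and 0.06.

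The inducible subunits that can take their places rose in senescent FAPs, from levels far below those of their counterparts. Psmb8, which replaces Psmb5, had 3.55, 2.76 and 2.85 CPM in control and 7.76, 7.33 and 8.03 CPM in senescent libraries. Psmb9, which replaces Psmb6, had 0.558, 0.285 and 0.574 CPM in control and 1.99, 1.74 and 1.395 CPM in senescent libraries. Psmb10, which replaces Psmb7, had 13.6, 11.6 and 12.7 CPM in control and 15.4, 16.6 and 17.4 CPM in senescent libraries. None of the 3 overlapped between groups, and all 3 senescent libraries lay above all control libraries in 26.5% of all genes. The log2 fold changes were 1.21 for Psmb8 (SE 0.14, limma adjusted p = 0.000660), 1.19 for Psmb9 (SE 0.19, limma adjusted p = 0.00237) and 0.37 for Psmb10 (SE 0.11, limma adjusted p = 0.0270), and all remained positive and called with library totals. Psmb9 rested on 15 to 104 reads per library, and the pseudocount lowers its estimate. On whole reads its log2 fold change was 1.88 in edgeR and 1.90 in DESeq2, above 1.36 and 1.38 for Psmb8. Psmb10 was called in 3 of the 6 fits that left out a library, with a limma adjusted p of up to 0.0906. Each of the 3 genes overlaps another gene on the opposite strand, and the sources used here do not say if counting took strand into account.

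Leukocytes are rich in immunoproteasome. Of their 3 listed markers, whose summed levels are given above, Cd68 rose by 1.43 on the log2 scale (limma adjusted p = 0.00113). Csf1r had a log2 fold change of 0.15 (limma adjusted p = 0.343). Itgam had a log2 fold change of 1.11, from 3, 0 and 0 reads in control and 26, 50 and 24 in senescent libraries. It reached 0.5 CPM, the level needed for testing, only in senescent libraries, so that rule itself selected for a rise. The pan-leukocyte gene Ptprc was not listed. Their part in the change of Psmb8, Psmb9 and Psmb10 was not tested.

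Within each library, the level per kilobase of exon of each inducible subunit was divided by that of its constitutive counterpart, a ratio that library scaling does not touch. The percentages depend on the exon lengths used, and the folds between groups do not. Psmb8 stood at 2.06%, 1.81% and 1.86% of Psmb5 in control and at 5.47%, 4.98% and 6.04% in senescent libraries. The mean went from 1.91% ± 0.136 to 5.50% ± 0.532 (SD, n = 3 and 3), a 2.87-fold difference. Folds of these ratios are from the means of their log2 values. All 3 senescent values were more than those of any control library.

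Psmb9 stood at 0.243%, 0.147% and 0.274% of Psmb6 in control and at 1.07%, 0.903% and 0.723% in senescent libraries, means of 0.221% ± 0.0665 and 0.899% ± 0.174 and a 4.15-fold difference. Psmb10 stood at 11.4%, 8.36% and 9.57% of Psmb7 in control and at 14.4%, 13.8% and 13.8% in senescent libraries, means of 9.77% ± 1.52 and 14.01% ± 0.372 and a 1.45-fold difference. Neither pair of groups overlapped. With 0.5 CPM added to both genes, the log2 difference of Psmb9 to Psmb6 was 1.33 in place of 2.05. The exact two-sided permutation test gave p = 0.1 for each of the 3 ratios, the smallest p that 3 libraries against 3 allow, and 0.1 after Benjamini-Hochberg adjustment over the 3. In senescent FAPs the constitutive subunit therefore remained the more abundant transcript of each pair.

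**Figure D3:**
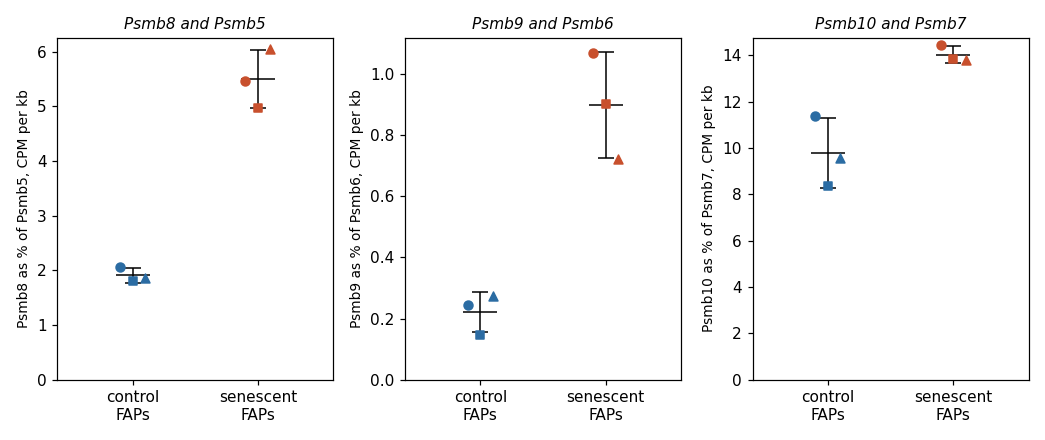
Level per kilobase of each inducible subunit as a percent of its constitutive counterpart in the same library; circles, squares and triangles are replicates 1, 2 and 3, blue is control and red is senescent, and bars give the mean ± SD. All 3 ratios are higher in every senescent library, with means of 1.91% and 5.50% for Psmb8 to Psmb5, 0.221% and 0.899% for Psmb9 to Psmb6, and 9.77% and 14.01% for Psmb10 to Psmb7.

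The start regions of the constitutive and inducible subunits of 2 of these pairs are shown because their ratios differed most between senescent and control FAPs. Each runs from 250 bases before to 50 bases after the RefSeq transcript start (GRCm38.p6), 5′ to 3′ on the gene's strand. The windows are chr14:54617946-54618245 (minus strand) for Psmb5, chr11:70525107-70525406 (plus) for Psmb6, chr17:34197945-34198244 (plus) for Psmb8 and chr17:34187281-34187580 (minus) for Psmb9. GENCODE places the start of Psmb8 at chr17:34197721 and that of Psmb9 at chr17:34187764, both upstream of these windows. Its starts of Psmb5 and Psmb6 lie inside theirs. Letters around the GENCODE starts of Psmb8 and Psmb9 were not searched. Capitals mark a match on either strand to TGACNNNGC, the core of the antioxidant response element that Nrf factors bind, in Psmb5 and Psmb6, to TTCNNNGAA, the STAT element, in Psmb8, and to CCAAT in Psmb9.
Psmb5: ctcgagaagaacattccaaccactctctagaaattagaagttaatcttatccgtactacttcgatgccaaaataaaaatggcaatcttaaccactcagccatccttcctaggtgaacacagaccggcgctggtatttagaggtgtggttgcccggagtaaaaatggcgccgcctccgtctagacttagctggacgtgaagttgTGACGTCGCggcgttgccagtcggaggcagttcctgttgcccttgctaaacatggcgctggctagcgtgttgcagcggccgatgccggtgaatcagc
Psmb6: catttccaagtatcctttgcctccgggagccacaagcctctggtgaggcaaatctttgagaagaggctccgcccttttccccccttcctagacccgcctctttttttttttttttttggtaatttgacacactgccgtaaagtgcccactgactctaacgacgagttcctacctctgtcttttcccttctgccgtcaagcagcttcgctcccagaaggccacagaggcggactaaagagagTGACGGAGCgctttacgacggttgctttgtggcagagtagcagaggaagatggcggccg
Psmb8: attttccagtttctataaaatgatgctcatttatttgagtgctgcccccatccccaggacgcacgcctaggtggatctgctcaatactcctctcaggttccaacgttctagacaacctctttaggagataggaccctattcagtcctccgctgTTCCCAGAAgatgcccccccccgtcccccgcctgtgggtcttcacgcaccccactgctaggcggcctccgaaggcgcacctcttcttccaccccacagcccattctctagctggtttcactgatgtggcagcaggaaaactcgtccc
Psmb9: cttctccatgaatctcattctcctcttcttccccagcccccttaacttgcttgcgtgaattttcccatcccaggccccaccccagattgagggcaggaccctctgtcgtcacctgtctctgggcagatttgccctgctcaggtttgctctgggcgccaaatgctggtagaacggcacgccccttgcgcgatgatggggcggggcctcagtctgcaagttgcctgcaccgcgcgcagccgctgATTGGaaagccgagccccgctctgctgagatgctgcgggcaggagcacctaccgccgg

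TGACNNNGC began at position −47 from the start in Psmb5 and at −9 in Psmb6, and was in neither Psmb8 nor Psmb9. Of the 35 genes, 28 had a RefSeq window, and 5 of those held TGACNNNGC (Psmb5, Psmb6, Psmc6, Psmd12 and Psmd9), or 17.9%, against 13.99% of 27025 genes. CCAAT was in 11 of the 28, or 39.3%, against 41.1% of genes. The interferon response element, searched as 2 copies of GAAA with any 2 bases between them, was in 3, or 10.7%, against 3.99%. None of the windows shown, those of Psmb5, Psmb6, Psmb8 and Psmb9, held that element. TTCNNNGAA was in 1 of the 28, or 3.57%, against 9.55%. These are matches of letters, not binding sites, and of the 5 genes that held TGACNNNGC none was called without the replicate block.

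The 6 ATPases, which form the ring that unfolds substrates, were not called, where 24.3% of all tested genes fell and 21.8% rose. Their median log2 fold change was −0.06 (0.15 with library totals). None of them had an unadjusted p under 0.05 in limma, and none was called in edgeR or DESeq2. Psmc3 had the highest estimate, with 171, 182 and 168 CPM in control and 175, 180 and 177 CPM in senescent libraries. The senescent values fell inside the control range. The log2 fold change came to 0.03 (SE 0.07, limma adjusted p = 0.736), and with library totals 0.24 (limma adjusted p = 0.0239). Psmc3 overlaps Slc39a13 on the opposite strand, so its reads are less certain.

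Psmc5 had the lowest estimate, with 107, 122 and 113 CPM in control and 100, 104 and 109 CPM in senescent libraries. The groups overlapped through control replicate 1 and senescent replicate 3. This gave a log2 fold change of −0.13 (SE 0.08, limma adjusted p = 0.192), against 0.08 with library totals. Psmc1, Psmc2 and Psmc4 had log2 fold changes of −0.12, −0.07 and −0.05, and Psmc6 had 0.01, with a sign that turned when control replicate 1 or senescent replicate 3 was left out. Whether the ATPases differ from the alpha subunits in their response was not tested.

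Psmd1 and Psmd2, the large scaffolds of the base, and Psmd4, a ubiquitin receptor, were not called, nor did any reach an unadjusted p under 0.05 in limma or a call in edgeR or DESeq2. Psmd4 had 108, 110 and 107 CPM in control and 111, 111 and 103 CPM in senescent libraries, which overlapped, with a mean of 108 CPM in both groups (log2 fold change −0.00, SE 0.07, limma adjusted p = 0.974). With library totals it was called higher, at 0.21 (limma adjusted p = 0.0397). Psmd1 had 199, 241 and 208 CPM in control and 180, 191 and 199 CPM in senescent libraries. Control replicate 2 stood above the rest, and the groups overlapped narrowly, at control replicate 1 and senescent replicate 3. Its log2 fold change was −0.18 (SE 0.09, limma adjusted p = 0.149). Psmd2 had the highest CPM of the 35, a scale that does not account for gene length, at 397 ± 38.3 in control and 353 ± 11.4 in senescent FAPs, with a log2 fold change of −0.17 (limma adjusted p = 0.159).

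In the lid, which carries the deubiquitinase, 2 of 8 genes fell, against 24.3% of all tested genes. The median log2 fold change of the 8 was −0.16 (0.05 with library totals). Psmd3, a structural lid subunit, had 126, 120 and 108 CPM in control and 95.8, 98.2 and 85.4 CPM in senescent libraries. Replicate 3 was the lowest of its group on both sides, and the groups did not overlap. Psmd3 fell from 118 ± 9.29 to 93.1 ± 6.82 CPM, a log2 fold change of −0.34 (SE 0.09, limma adjusted p = 0.0179), and was called in 4 of the 6 fits that left out a library. Psmd7, which pairs with the deubiquitinase Psmd14, fell from 127 ± 5.25 to 106 ± 0.672 CPM, a log2 fold change of −0.26 (SE 0.07, limma adjusted p = 0.0143), and was called in 5 of the 6.

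Psmd14 itself was not called, at 108 ± 8.71 and 95.3 ± 7.59 CPM (log2 fold change −0.18, limma adjusted p = 0.144). Psmd12 had 71.6, 89.6 and 76.8 CPM in control and 58.8, 68.6 and 71.5 CPM in senescent libraries, with a gap of less than 1 CPM between the groups. The log2 fold change came to −0.26 (limma adjusted p = 0.0947), and it passed the test in limma with the replicate number as a block (adjusted p = 0.0349). Psmd6 had the highest lid estimate, with 74.3, 83.4 and 77.7 CPM in control and 70.0, 76.1 and 82.9 CPM in senescent libraries, which overlapped broadly. This gave a log2 fold change of −0.04 (SE 0.09, limma adjusted p = 0.717). Psmd11 and Psmd13 had log2 fold changes of −0.14 and −0.11 and were not called.

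The remaining lid gene, Psmd8, differed more between replicate numbers than between groups. It had 252, 156 and 148 CPM in control and 237, 151 and 143 CPM in senescent libraries. Replicate 1 stood apart in both groups, at 1.61 times the next library in control and 1.57 times in senescent FAPs, and each senescent library was slightly below its numbered counterpart. The log2 fold change was −0.06 with an SE of 0.25, the largest among the 35 genes (limma adjusted p = 0.856). With the replicate number as a block the estimate was the same and its SE was 0.07 (limma adjusted p = 0.465). Without control replicate 1 the unpaired estimate turned to 0.18, a fit that keeps senescent replicate 1 without its numbered counterpart. No other member was more than 1.12 times the next library in control replicate 1 or 1.05 times in senescent replicate 1. Of all 14776 genes, 132 (0.893%) were more than 1.4-fold above both other libraries in replicate 1 of both groups, against 54 (0.365%) for replicate 2 and 29 (0.196%) for replicate 3. Psmd8 lies at chr7:29174188-29180701 on the minus strand of GRCm38. Of the 3 nearest tested protein-coding genes on each side, Fam98c, Spred3, Ggn, Catsperg1, Kcnk6 and Yif1b, none met that criterion in both groups. Fam98c (1.75 in control, 1.17 in senescent FAPs) and Catsperg1 (1.63 and 1.22) passed 1.4 in control only, at no more than 6.47 and 1.67 CPM. The other neighbours passed it in neither group. The pattern in Psmd8 was chosen for description after its values were seen.

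**Figure D4:**
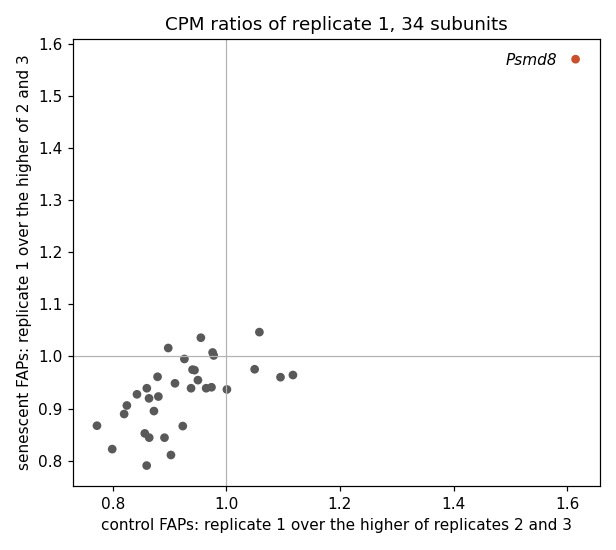
Level of replicate 1 over the higher of the other 2 libraries of its group for each of the 34 genes other than Psma8, in control FAPs (horizontal axis) and in senescent FAPs (vertical axis). Psmd8 lies alone at 1.61 and 1.57, and no other gene passes 1.12 on the control axis or 1.05 on the senescent axis.

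The 3 chaperones of base assembly, which guide pairs of ATPases into the ring, were the only group with a positive median at the deposited scaling, 0.07, against 0.28 with library totals. None had an unadjusted p under 0.05 in limma, and none was called in edgeR or DESeq2. Psmd10, also known as gankyrin, had 21.3, 23.1 and 19.6 CPM in control and 22.5, 23.5 and 25.9 CPM in senescent libraries. The senescent values lay mostly above, with an overlap at control replicate 2. Its log2 fold change was 0.16 (SE 0.10, limma adjusted p = 0.219), and 0.37 with library totals (limma adjusted p = 0.0207). Psmd9 had 28.8, 27.2 and 26.6 CPM in control and 27.6, 26.4 and 23.5 CPM in senescent libraries, and the groups overlapped. The log2 fold change came to −0.10 (SE 0.09, limma adjusted p = 0.421). Psmd5 had 61.1 ± 7.88 and 63.8 ± 4.73 CPM, a log2 fold change of 0.07 (limma adjusted p = 0.643).

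Levels per kilobase of exon allow a rough comparison of the genes with each other. Exon length was counted over all protein-coding transcripts of a gene, so it can exceed that of the transcript expressed. It was 3.43 kb for Psmb1 and 0.798 kb for Psmb6, whose control means were 141 and 125 CPM before the division. Among the 14 core subunits other than Psma8, Psmb1 was lowest, at 41.1 CPM per kilobase in control, and Psmb6 highest, at 156, a 3.80-fold range, and in senescent FAPs the same genes marked a 3.76-fold range, from 37.4 to 141. Psmb6 was the highest of all 35 genes in both groups and Psma8 the lowest, at 0.321 and 0.680. The lowest regulatory particle subunit was Psmd12, at 29.9 and 25.03 CPM per kilobase. The chaperones lay lower than all of these but Psma8, with Psmd9 at 10.6 and 9.93, Psmd5 at 13.9 and 14.5 and Psmd10 at 14.5 and 16.3.

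Of 32 related genes outside the rule, 31 were listed. At a limma adjusted p under 0.05, 11 fell and 5 rose, against 24.3% and 21.8% of all tested genes. With library totals 5 were called lower, against 13.1%, and 9 higher, against 33.8%. The same shares apply to the counts of each list below. In the list of inducible subunits and activators, 3 of 7 rose (Psmb8, Psmb9 and Psmb10) and 1 fell. The gene that fell was Psme3, the nuclear activator of the core, with 110, 122 and 117 CPM in control and 86.6, 82.1 and 85.2 CPM in senescent libraries. The groups were far apart, at a log2 fold change of −0.45 (SE 0.07, limma adjusted p = 0.00186), and still −0.24 with library totals (limma adjusted p = 0.0269). The interferon-inducible activators Psme1 and Psme2 and the large activator Psme4 were not called, with log2 fold changes of 0.16, 0.09 and 0.08. With library totals Psme1 and Psme4 were called higher, at 0.37 and 0.29 (limma adjusted p = 0.0355 and 0.0255). Psme2 has a near copy, Psme2b, so reads may be shared between them.

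Of 7 listed genes for core assembly and additional subunits 5 fell, against 24.3% of all tested genes. The median log2 fold change of the 7 was −0.38 (−0.17 with library totals). The core assembly chaperones Psmg1 and Psmg4 went from 16.9 ± 0.557 to 11.2 ± 0.963 CPM and from 5.19 ± 0.643 to 2.40 ± 0.574 CPM. Their log2 fold changes were −0.58 (SE 0.11, limma adjusted p = 0.00393) and −0.99 (SE 0.18, limma adjusted p = 0.00417), and both stayed called with library totals. Shfm1, a small lid subunit, went from 107 ± 5.34 to 82.1 ± 3.26 CPM, a log2 fold change of −0.38 (SE 0.07, limma adjusted p = 0.00439). Psmg3 and the ubiquitin receptor Adrm1 also fell, by 0.53 and 0.37 on the log2 scale. With library totals Psmg3 stayed called (limma adjusted p = 0.0471). Shfm1 and Adrm1 did not, at −0.17 and −0.16 (limma adjusted p = 0.0938 and 0.146). Psmg2 was called in limma with the replicate block only (log2 fold change −0.36, adjusted p = 0.1002 without it and 0.0232 with it). Pomp, the maturation protein of the core, had a log2 fold change of 0.14 (limma adjusted p = 0.266), and of 0.35 with library totals (limma adjusted p = 0.0235). Paaf1 was not among the listed genes.

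Of 15 regulators, shuttles and associated enzymes, 4 fell and 1 rose, against 24.3% and 21.8% of all tested genes. The median log2 fold change of the 15 was −0.13 (0.08 with library totals). Ube3c, a ubiquitin ligase bound to the proteasome, fell from 116 ± 8.11 to 89.3 ± 4.47 CPM (log2 fold change −0.38, limma adjusted p = 0.00667). The shuttles Ubqln4 and Rad23b fell by 0.37 and 0.27 on the log2 scale (limma adjusted p = 0.00701 and 0.0262). Ddi2, the protease that activates Nfe2l1, fell by 0.20 (limma adjusted p = 0.0440) at the deposited scaling but stood at 0.0099 with library totals (limma adjusted p = 0.919). It was called in 1 of the 6 fits that left out a library and in neither edgeR nor DESeq2. Ngly1, which removes the sugars of Nfe2l1, rose by 0.30 (limma adjusted p = 0.0297), and was also called in 1 of those 6 fits. Nfe2l1, the transcription factor known to raise proteasome genes when degradation is impaired, had 383, 346 and 382 CPM in control and 365, 406 and 406 CPM in senescent libraries. Those values overlapped, with a log2 fold change of 0.08 (SE 0.08, limma adjusted p = 0.449), but it was called higher with library totals, at 0.30 (limma adjusted p = 0.0228). In limma with library totals none of the 15 was called lower, against 13.1% of all genes. At an unadjusted p under 0.05 none was lower either, against 16.1%. The 2 called higher, against 33.8%, were Nfe2l1 and Ngly1.

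Ubiquitin itself was followed through Ubb and Rps27a, of which 1 rose and 1 fell. Ubb, which encodes repeats of ubiquitin, had 294, 250 and 272 CPM in control and 347, 332 and 330 CPM in senescent libraries. Every senescent library was above every control library, and the log2 fold change was 0.31 (SE 0.08, limma adjusted p = 0.0187). Rps27a, which encodes ubiquitin fused to a ribosomal protein, fell from 300.2 ± 13.97 to 207 ± 22.2 CPM, with no overlap between the groups. The change was −0.54 on the log2 scale (SE 0.09, limma adjusted p = 0.00315), and −0.33 with library totals (limma adjusted p = 0.0194).

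**Figure D5:**
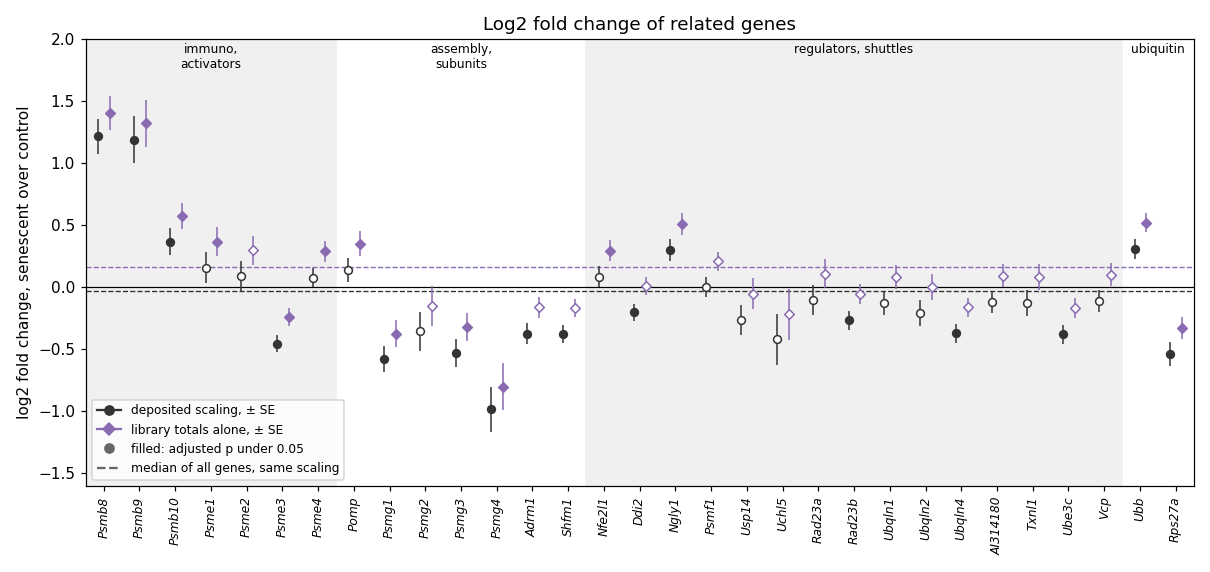
Log2 fold change of the 31 related genes, senescent over control, with the SE, at the deposited scaling (circles) and after division by library totals (diamonds), filled where the limma adjusted p is under 0.05; dashed lines mark the median of all tested genes at each scaling. Psmb8 and Psmb9 are highest, at 1.21 and 1.19, and Psmg4 is lowest, at −0.99.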

How the data were processed

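Bulk RNA-seq libraries of control and senescent FAPs, 3 each, were assigned to groups and replicate numbers from their sample labels, and dose and times come from the study's methods. The authors prepared stranded mRNA libraries and deposited 1 table of edgeR CPM. The submitters' processing notes name mm10, edgeR (3.10) and R (3.6.0), and the aligner and the counting step are not given in the sources used here. The deposited signal is CPM of the effective library size, not plain CPM: columns summed to 919756 to 1090526, and 100% of values were whole multiples of 1 read within 0.01, so whole reads were recovered. The plan assumed CPM, and the same test was kept. Of 16895 lines, 1 names no gene (0.0041% to 0.0070% of reads) and was left out.

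The 14776 genes that reached 0.5 CPM in 3 or more libraries were tested in limma (3.58.1), under R (4.3.3), on the log2(CPM + 0.5) scale, two-sided and with a variance trend, with Benjamini-Hochberg adjustment over all tested genes. Fold changes are on that log2 scale, senescent minus control. Alternatives were edgeR (4.0.16) and DESeq2 (1.42.0) on whole reads, other scalings, pseudocounts and filters, a replicate block and leaving out each library. Deviations from group means correlated at 0.54, 0.31 and 0.21 between libraries of the same replicate number. Between libraries of different numbers the correlations ran from −0.36 to 0.15. The labels state no pairing. The numbers were treated as pairs in the replicate block and the sign-flip test only, and the planned main test was unpaired. Exon lengths came from GENCODE and start regions from RefSeq, both on GRCm38, the same assembly as mm10. Each length is that of the merged exons of all protein-coding transcripts of the gene. Ratios were compared with an exact permutation test, and with an exact sign-flip test where libraries were paired by replicate number. The unpaired limma and edgeR tests were checked on simulated reads with few changed genes, no shift in scaling and no paired replicates. That check does not cover the choice of scaling, the replicate block, DESeq2 or the tests of ratios.

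Values in every library are given for the members with the highest and lowest fold change in each of 6 groups and for Psmb5, Psmb6 and Psmb7. All genes of the list of inducible subunits and activators are named, as are the 3 with the smallest p in each other related list, Nfe2l1 and Pomp, and the members with the highest and lowest level per kilobase. Further genes were named after their values were seen. The members and lists were chosen with earlier results of these data known. Some related genes are not reported here.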

Additional observations from a re-analysis of the deposited data

How the results depend on the processing

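Counts of called members (7 lower, 1 higher) depended most on the scaling: 0 and 5 with library totals, and 3 and 0 with quantile normalization. With a 2 CPM filter 0 were higher, since Psma8 was then not tested. The paired fit, with a replicate block, gave 8 and 1, and a replicate block with library totals, chosen after seeing the data, gave 1 and 6. Leaving out each library gave 4 to 6 lower (4 without senescent replicate 2) and 0 to 1 higher (0 without control replicate 1, senescent replicate 2 or senescent replicate 3). Related genes (11 lower, 5 higher) were 5 and 9 with library totals and 4 and 9 with the replicate block on top. Leaving out each library gave 9 to 11 lower and 2 to 4 higher, with 2 without control replicate 3 or senescent replicate 2 and 3 without senescent replicate 3. The members' median log2 fold change went from −0.13 to 0.079 with library totals, with or without the block, and from −0.14 to −0.10 over the left-out libraries. The replicate block changed the calls of Psmd12, Psmg2 and Usp14 (limma adjusted p = 0.0389 with it and 0.107 without), and no other call of the genes in the lists at the deposited scaling. With library totals it also changed those of Psma7, Psmd5 (limma adjusted p = 0.0837 to 0.0236) and Psmg3 (0.0471 to 0.0654). The 3 ratios kept their direction under every alternative run. For each ratio the exact permutation test gave p = 0.1 with the pseudocount and 0.2 with any single library left out. An exact test that flips the signs of the differences paired by replicate number gave p = 0.25. Each is the smallest p that its design allows.

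These estimates turned positive with library totals, with or without the replicate block: Psma1 0.015, Psma2 0.20, Psma6 0.16, Psmb1 0.079, Psmb2 0.039, Psmb5 0.034, Psmb6 0.066, Psmb7 0.059, Psmc1 0.094, Psmc2 0.14, Psmc4 0.16, Psmc5 0.082, Psmd1 0.036, Psmd2 0.044, Psmd4 0.21, Psmd6 0.17, Psmd8 0.15, Psmd9 0.11, Psmd11 0.074, Psmd13 0.10, Psmd14 0.034 and, called lower at the deposited scaling, Ddi2 0.0099. With quantile normalization Psma2 was 0.068, Psma6 0.055, Psmc2 0.025, Psmc4 0.060, Psmd2 0.024, Psmd4 0.11, Psmd6 0.060 and Psmd8 0.053. Psma2 and Psmd4 were 0.0066 and 0.015 with median-of-ratios factors, 0.012 and 0.024 in edgeR, and 0.024 and 0.036 in DESeq2. Leaving out single libraries spanned −0.084 to 0.059 for Psma2, −0.10 to 0.00075 for Psma6, −0.083 to 0.0096 for Psmc4, −0.081 to 0.088 for Psmc6, −0.023 to 0.035 for Psmd4, −0.026 to 0.16 for Psmd5, −0.10 to 0.019 for Psmd6, −0.29 to 0.18 for Psmd8 and −0.030 to 0.16 for Psme2. The cause was not tested. Depth limits Psma8 and Psmb9, and 3 libraries a group limit the rest.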
